A study of Mus musculus with 40 samples.

Results

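A set of 9 genes that code for secreted factors of the tumour cell was followed through 40 libraries of cultured mouse melanoma cells. They are the colony-stimulating factor gene Csf1 and the chemokine genes Ccl2, Ccl5, Ccl7, Cxcl1, Cxcl5, Cxcl10, Cxcl12 and Cx3cl1. They were taken by mouse symbol from the Ensembl identifiers of the count table, so that the set holds 9 of 51789 genes, of which 27946 had a count in at least one library. RNA was measured by QuantSeq, in which each transcript is read near its 3′ end, in 20 groups of 2 libraries each. The study asked how the circadian transcription factor Bmal1 (gene Arntl) alters melanoma cells, and compared cells that lack it, cells given more of it and cells given a mutant of it.

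B16-F10 is a pigmented mouse melanoma line, represented by a control clone (B16-Ctrl) and a Bmal1 knockout clone (B16-KO) without a vector. YUMM2.1 was derived from transgenic tumours with altered Braf and Cdkn2a and a stabilized β-catenin. YUMM1.7 comes from a related model with altered Braf and Cdkn2a. The aC3 cells, labelled as YUMM2.1 knockout, are a single Bmal1-null clone made by CRISPR editing. YUMM2.1, aC3 and YUMM1.7 each carried a lentiviral empty vector (EV), wild-type Bmal1 (WT) or a mutant of Bmal1 that lacks the basic helix-loop-helix domain by which it binds DNA (dHLH, labelled bHLH in the cells without a hairpin and dH in those with one). The YUMM2.1 and aC3 cells were sorted for the GFP of that vector, and YUMM2.1 cells with each construct additionally carried a control hairpin (shNC) or one of 2 hairpins against Myh9, the heavy chain of non-muscle myosin IIA (shMyh9#2 and shMyh9#4), under puromycin selection. In B16-F10 a difference between knockout and control is therefore a difference between clones. The aC3 cells have no control clone here, and aC3-EV against YUMM2.1-EV sets a single clone against a sorted population. Nothing in the labels says whether the 2 libraries of a group came from separate cultures, so that the p-values measure the spread between these libraries.

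Chemokines are small secreted proteins that guide leukocytes through G protein-coupled receptors, and the spacing of their first cysteines divides them into the CC, CXC and CX3C families. Ccl5 draws T cells and macrophages. Ccl2 and Ccl7 act on Ccr2 of monocytes, Cxcl10 on Cxcr3 of activated T cells, Cxcl1 and Cxcl5 on Cxcr2 of neutrophils, Cxcl12 on Cxcr4, and Cx3cl1, which is made as a membrane-bound protein, on Cx3cr1. Csf1 is the growth factor that keeps macrophages alive through the receptor Csf1r, so a tumour cell that makes it can sustain macrophages around it.

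The sequences upstream of Csf1, Cxcl10 and Cxcl12 are shown because, of the 5 genes with promoter sequence at hand, these 3 were called in a construct comparison of YUMM2.1 cells. Each is the 250 bases before the annotated start, 5′ to 3′ on the strand of the gene, from RefSeq on GRCm38.p6. Matches to the motifs searched on both strands are in capitals. The motifs were the E-box CACGTG, to which Clock and Bmal1 bind, the AP-1 site TGANTCA, the NF-κB site and the CArG box of serum response factor.
Csf1 (chr3:107760470-107760719, minus strand): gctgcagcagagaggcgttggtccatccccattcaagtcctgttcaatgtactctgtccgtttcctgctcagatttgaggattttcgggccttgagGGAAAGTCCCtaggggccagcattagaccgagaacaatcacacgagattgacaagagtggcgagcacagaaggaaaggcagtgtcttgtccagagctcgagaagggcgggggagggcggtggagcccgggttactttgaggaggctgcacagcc
Cxcl10 (chr5:92348890-92349139, minus strand): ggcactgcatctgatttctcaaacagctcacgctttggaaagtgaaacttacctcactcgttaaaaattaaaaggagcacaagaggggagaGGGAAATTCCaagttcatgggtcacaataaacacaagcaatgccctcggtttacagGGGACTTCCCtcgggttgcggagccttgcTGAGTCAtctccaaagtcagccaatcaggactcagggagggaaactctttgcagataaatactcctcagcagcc
Cxcl12 (chr6:117168285-117168534, plus strand): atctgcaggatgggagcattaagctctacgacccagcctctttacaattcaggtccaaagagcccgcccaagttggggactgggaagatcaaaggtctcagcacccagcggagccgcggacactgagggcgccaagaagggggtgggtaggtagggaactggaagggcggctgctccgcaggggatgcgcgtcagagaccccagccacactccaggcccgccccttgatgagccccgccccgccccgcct
The Csf1 window held 1 NF-κB match, GGAAAGTCCC, between 154 and 145 bases before the start. The Cxcl10 window held 2 NF-κB matches, GGGAAATTCC at 159 to 150 bases and GGGACTTCCC at 103 to 94 bases before the start, and 1 AP-1 match, TGAGTCA, at 74 to 68 bases. The Cxcl12 window held no match to any of the 4 motifs. Of 32851 promoter windows of this length, 3.90% held the NF-κB motif, 6.75% the AP-1 motif, 6.02% the E-box and 1.47% the CArG box. Promoter sequence was at hand for 5 of the 9 genes, and the other two with it, Cxcl1 and Cx3cl1, held 2 overlapping NF-κB matches (GGGAATTTCC and GGAATTTCCC, from 71 to 61 bases before the start) and no match, respectively.

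The libraries held between 3643332 and 22970049 estimated counts (median 10021164.5), with the B16-F10 libraries deepest (19348395 to 22970049) and the hairpin libraries most uneven (3643332 to 17485144). Myh9 lay between 665 and 996 CPM with shNC, between 473 and 681 CPM with shMyh9#4 and between 231 and 292 CPM with shMyh9#2, where CPM is the count of a gene relative to the scaled size of its library. Reads of Arntl overlapped between knockout and control in B16-F10 (10.7 to 15.3 CPM over the 4 libraries), while the knockout cells aC3-EV, at 30.3 and 32.8 CPM, lay above YUMM2.1-EV, at 16.02 and 13.95 CPM (log2 1.08, SE 0.19, edgeR adjusted p = 0.021). Reads at the 3′ end need not change with an editing lesion, so they check nothing. The normalized counts of the study gave YUMM2.1-EV replicate 2 and YUMM2.1-WT replicate 1 under each other's names, so the YUMM2.1 results are given as labelled and, for the members described with them, also with the 2 labels exchanged or without both. Without both, YUMM2.1-EV and YUMM2.1-WT each keep a lone library, so a p-value from that setting takes its spread from other groups. The markers of melanocytes reached 10 counts for all 10 listed genes in B16-F10, with a summed level of 24593 to 29538 CPM. In YUMM1.7, and in the YUMM2.1 and aC3 cells, 4 of 10 reached it. The sums were 110.2 to 169.9 CPM in YUMM1.7 and 119 to 708 CPM in YUMM2.1 and aC3 (535 to 708 CPM in aC3 alone). Of the listed genes, Tyrp1 and Mlana were at 0 throughout those lines, while Sox10 had its highest group mean in aC3-dHLH. Of 14 leukocyte markers, Cd3e and Ncr1 were at 0 in every library and the summed level lay between 2.17 and 88.5 CPM.

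**Figure D1:**
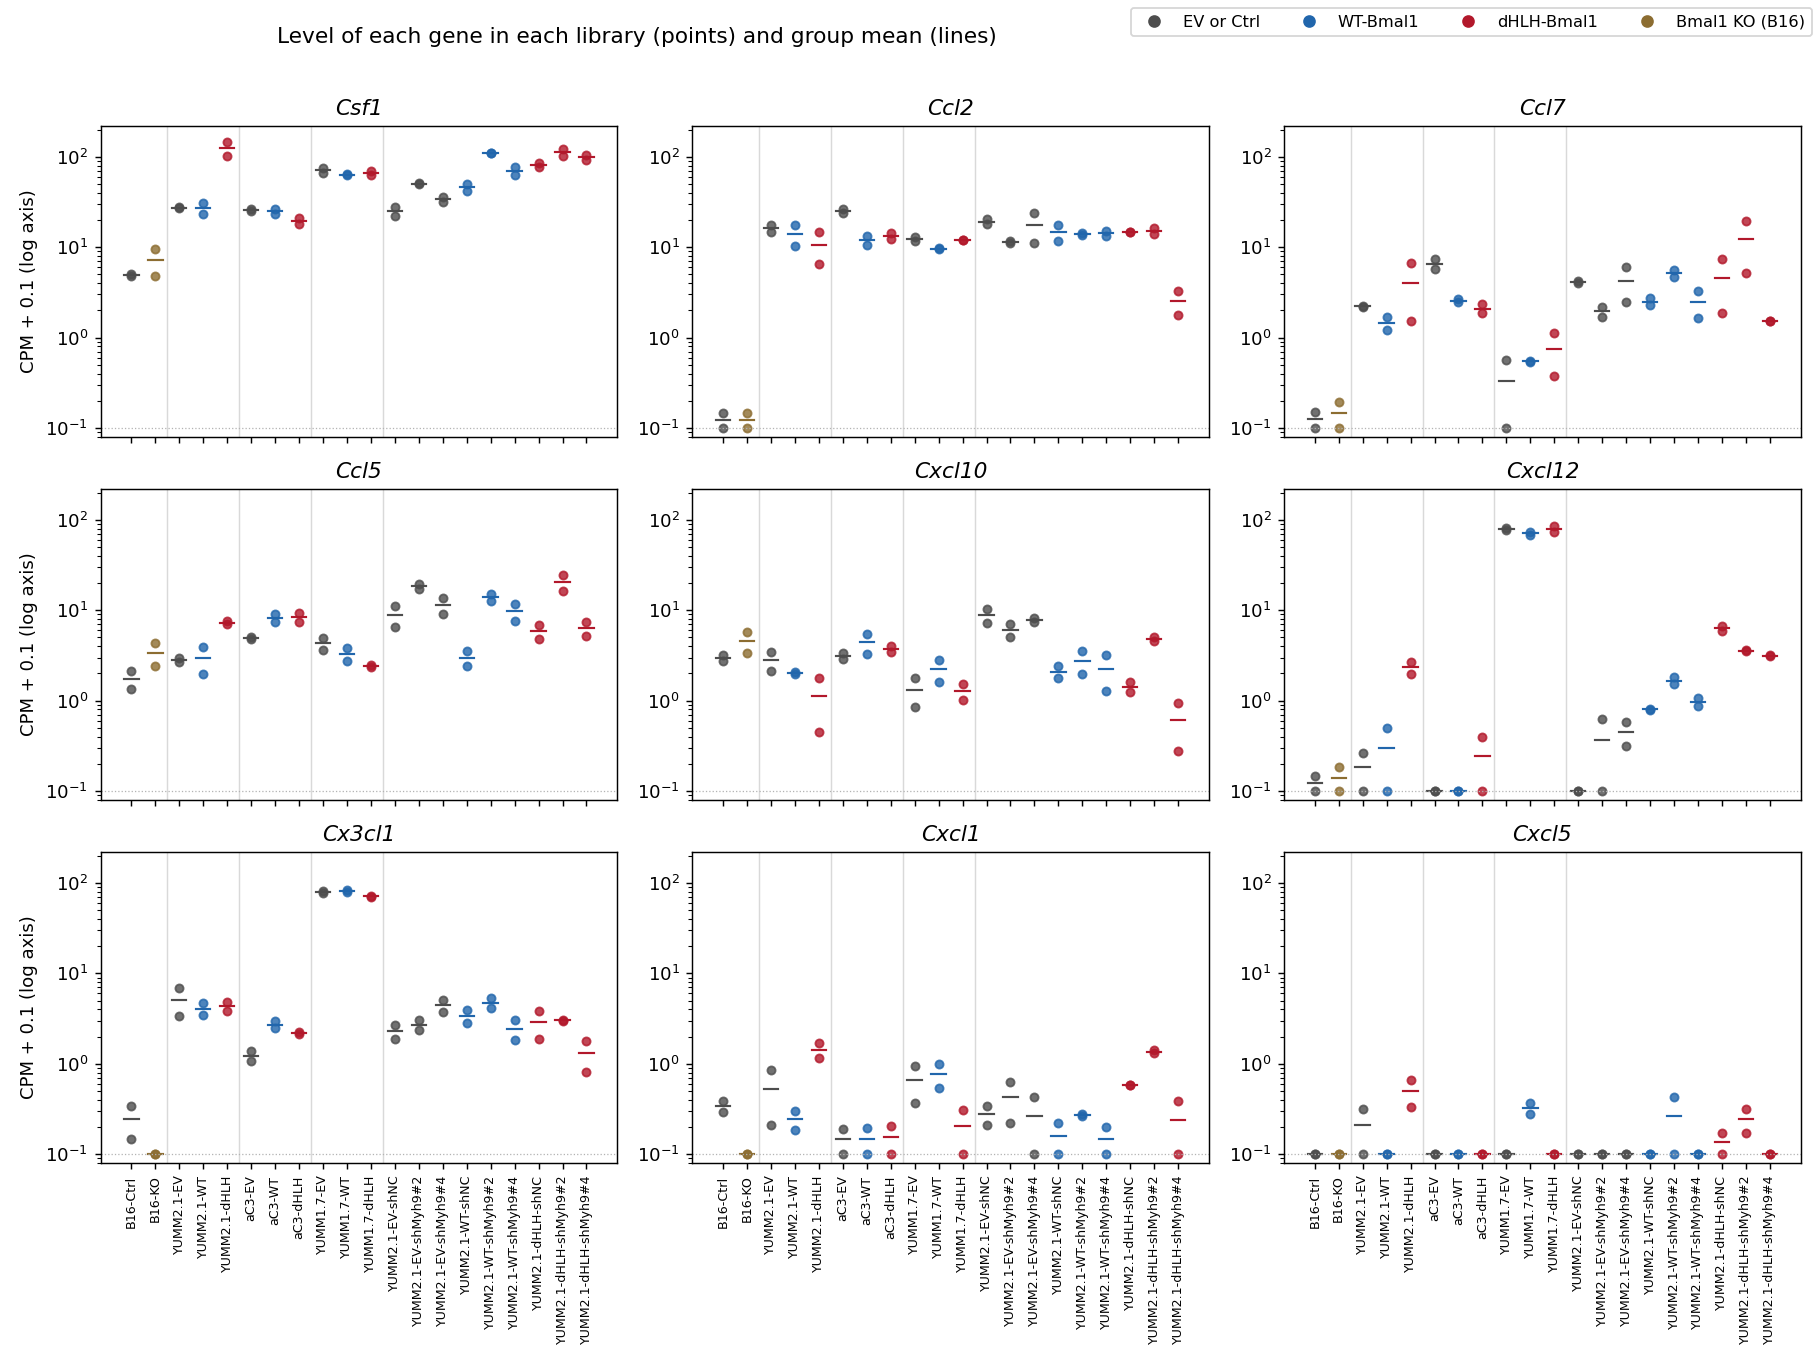
Level of each of the 9 genes in all 20 groups, as CPM plus 0.1 on a log axis, with 1 point per library and a line at the mean of the group. Csf1 and Ccl5 are seen in every group, Cxcl12 and Cx3cl1 are highest in the 3 YUMM1.7 groups, Ccl2 is near 0 in B16-F10, and Cxcl5 is near 0 throughout.

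Only Csf1 and Ccl5 reached a mean of 10 counts a library in all 20 groups. Cxcl10 reached it in 19 groups, Ccl2 in 18, Cx3cl1 in 17, Ccl7 in 14, Cxcl12 in 8 and Cxcl1 in 2. Cxcl5 reached it in none, with at most 6 counts in a library and 31 of 40 libraries at 0, and it was too low to judge everywhere. A member was judged in a comparison only where one of its groups reached that mean, and it was called where its p from the quasi-likelihood test of edgeR, adjusted by Benjamini-Hochberg over all genes tested, was under 0.05. The comparisons below share libraries with each other, since one EV or shNC group serves several of them.

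In aC3, WT against EV called 2 of 6 judged members, both lower, against 11.2% of all genes, and dHLH against EV called 2 of 6, both lower, against 10.9%. In YUMM2.1, dHLH called 1 of 8 judged members against EV and 1 of 8 against WT, both higher, where 13.2% and 13% of all genes were called. With the 2 labels exchanged, 28.7% and 18.9% of all genes were called, and Ccl5 and Cxcl12 were called beside Csf1 in both. With shNC, WT against EV called 3 of 6 members (1 higher and 2 lower; 22.3% of all genes), dHLH against EV 3 of 7 (2 higher and 1 lower; 26.4%) and dHLH against WT 2 of 7, both higher (1.91%). The hairpin shMyh9#2 called 2 of 6 members in EV (6.65% of all genes), 2 of 7 in WT (4.76%) and 1 of 7 in dHLH (0.559%), all higher, and shMyh9#4 called 1 of 7 in dHLH, lower (15.1%). Between lines, the judged members called were 1 of 6 for aC3-EV against YUMM2.1-EV (1.75% of all genes), 4 of 7 for YUMM1.7-EV against YUMM2.1-EV (37.1%), 4 of 6 for B16-Ctrl against YUMM2.1-EV (54.3%) and 6 of 6 for B16-Ctrl against YUMM1.7-EV (54.5%).

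No member was called in 8 of the 23 comparisons of groups. In B16-F10, KO against Ctrl called 0 of 3 judged members with edgeR (0.44% of all genes), 0 at an unadjusted p under 0.05 and 0 with DESeq2. In YUMM2.1, WT against EV called 0 of 6 by all 3 counts. There edgeR called 0% of all genes (98 genes at an unadjusted p under 0.05) and DESeq2 called 1 gene. With the 2 labels exchanged, edgeR called 97 genes higher and 4 lower (0.705% of all genes), and again no member. In YUMM1.7, WT against EV, dHLH against EV and dHLH against WT called 0 of 6 members each (0.138%, 0.63% and 2.57% of all genes), with 1, 2 and 1 members at an unadjusted p under 0.05 and 0 with DESeq2 in each. In aC3, dHLH against WT called 0 of 6 (0.877% of all genes), with 1 at an unadjusted p under 0.05 and 0 with DESeq2. The hairpin shMyh9#4 called 0 of 6 in EV (1.71% of all genes; 1 member unadjusted and 0 with DESeq2) and 0 of 6 in WT (0.236%; 2 members unadjusted and 2 with DESeq2, Csf1 and Ccl5).

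**Figure D2:**
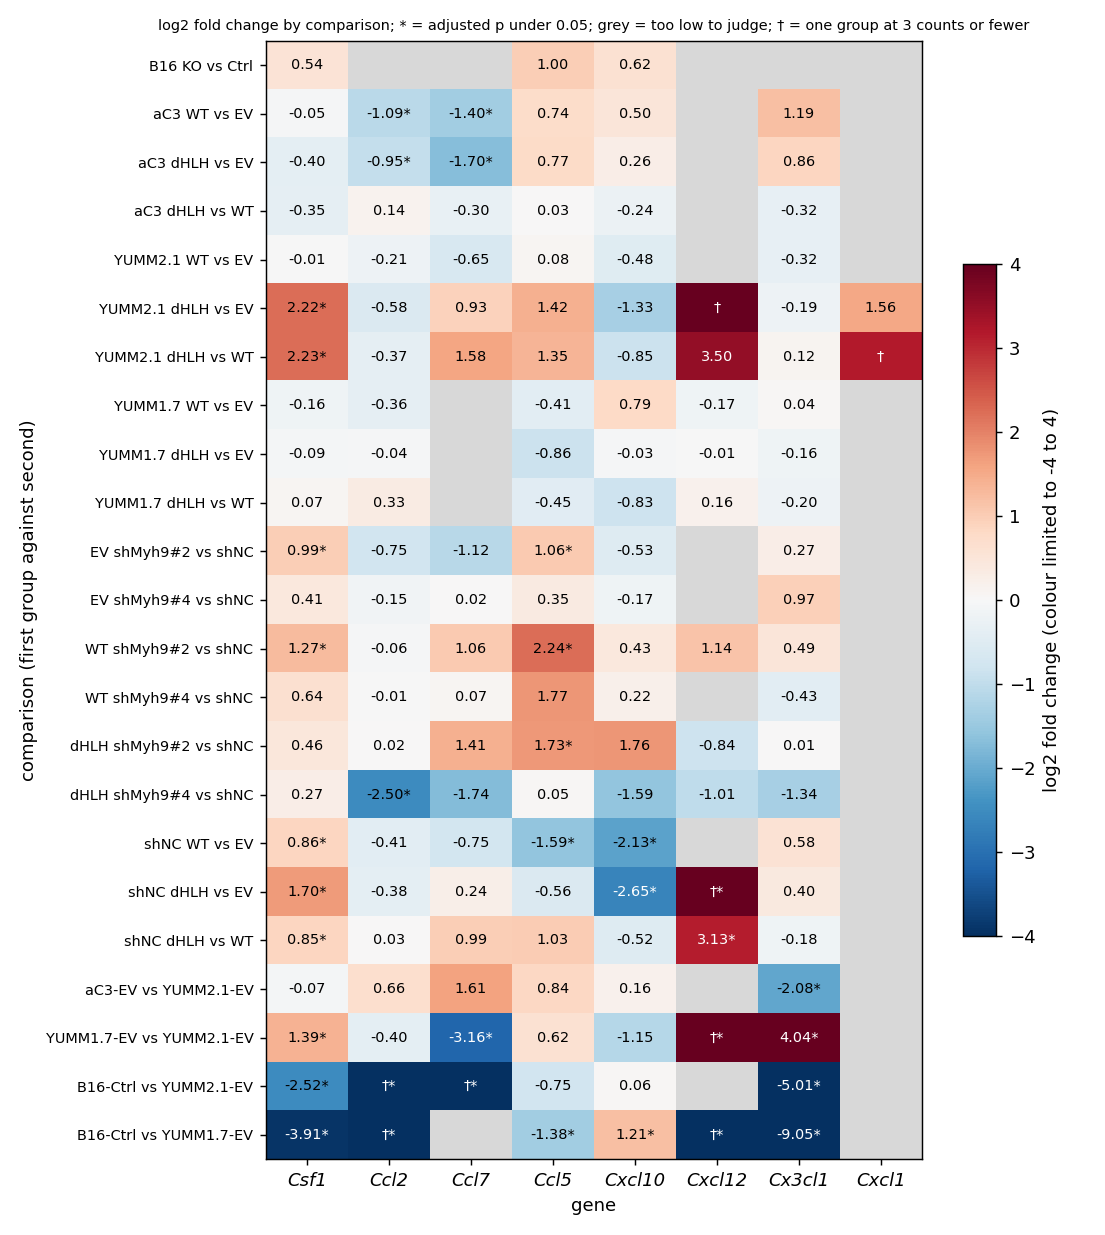
The log2 fold change of 8 members (columns) in 23 comparisons of groups (rows), written in each cell and shown by colour, red for higher and blue for lower in the first group. A star marks an adjusted p under 0.05, grey marks members too low to judge, and a dagger marks cells in which one group had 3 counts or fewer, where no fold change is printed. Csf1 is red and starred for dHLH in YUMM2.1 and for the construct comparisons with shNC, and Cxcl12 is grey in 11 of the rows.

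Csf1 (ENSMUSG00000014599, chr3:107741048-107760469, minus strand, GRCm38), the macrophage growth factor, rose with dHLH-Bmal1 in YUMM2.1. It was at 27.5 and 26.8 CPM in the EV libraries, at 23.1 and 30.5 CPM with WT and at 147 and 103 CPM with dHLH. Both dHLH libraries lay above all 4 others, while EV and WT overlapped. The log2 fold change of dHLH was 2.22 (SE 0.21, n = 2 libraries a group, adjusted p = 0.0023 by edgeR) against EV, which is 4.66-fold, and 2.23 (SE 0.21, edgeR adjusted p = 0.0024) against WT, which is 4.70-fold. With the 2 labels exchanged these were 2.32 (edgeR adjusted p = 4.5e-05) and 2.14 (0.00013). Without both libraries they were 2.19 and 2.04, where EV and WT each keep a lone library. WT against EV gave -0.01 (SE 0.21, edgeR adjusted p = 1) as labelled, 0.18 (0.71) after the exchange and 0.15 without both libraries.

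The rise of Csf1 with dHLH was not seen in the other hosts. In aC3 the libraries were at 24.8 and 26.6 CPM with EV, 26.5 and 23.5 CPM with WT and 18.2 and 21.1 CPM with dHLH. The dHLH libraries were the lowest 2 of the 6, but the difference from EV, -0.40 (SE 0.14), missed the threshold (edgeR adjusted p = 0.078). In YUMM1.7 the 6 libraries lay between 62.5 and 75.8 CPM with no call (dHLH against EV -0.09, SE 0.09, edgeR adjusted p = 0.77). The difference between hosts was itself tested: the dHLH effect on Csf1 was smaller than in YUMM2.1 by -2.602 in aC3 (SE 0.24, edgeR adjusted p = 3.0e-06) and by -2.31 in YUMM1.7 (SE 0.22, edgeR adjusted p = 1.9e-05) on the log2 scale, where 15.5% and 12.4% of all genes were called.

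With shNC, the Csf1 level rose in the order EV, WT, dHLH. The EV-shNC libraries were at 22.1 and 27.9 CPM, WT-shNC at 49.3 and 42.0 CPM and dHLH-shNC at 85.03 and 77.9 CPM, and no library of one group overlapped another group. WT exceeded EV by 0.86 (SE 0.15, edgeR adjusted p = 0.00041; 1.81-fold), dHLH exceeded EV by 1.705 (SE 0.15, 1.0e-07; 3.26-fold) and dHLH exceeded WT by 0.85 (SE 0.14, 0.0025; 1.80-fold). The last of these missed the threshold without WT-shNC replicate 2 (0.73, edgeR adjusted p = 0.08) and without dHLH-shNC replicate 1 (0.79, adjusted p = 0.064). WT thus differed from EV with shNC and not in the cells without a hairpin, and the difference between those 2 experiments was not tested.

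**Figure D3:**
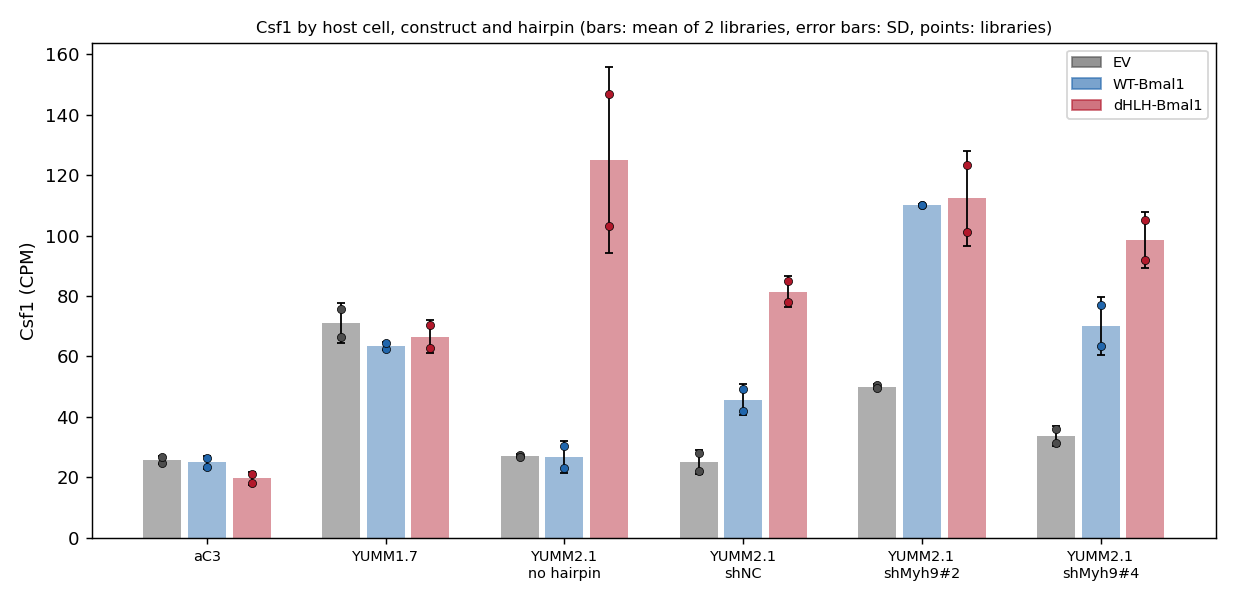
Csf1 in CPM by host, construct and hairpin, with bars for the mean of 2 libraries, error bars for the SD and points for the libraries. The YUMM2.1 cells with dHLH reach 103 to 147 without a hairpin and 77.9 to 123 with one, whereas aC3 stays between 18.2 and 26.6 and YUMM1.7 between 62.5 and 75.8 with every construct.

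Csf1 was also higher with shMyh9#2, called in EV and WT cells and not in dHLH cells. In EV cells it went from 22.1 and 27.9 CPM with shNC to 50.6 and 49.4 CPM with shMyh9#2, a log2 fold change of 0.99 (SE 0.15, edgeR adjusted p = 0.00035; 1.99-fold). In WT cells it went from 49.3 and 42.0 CPM to 110.2 and 110.0 CPM, a log2 fold change of 1.27 (SE 0.14, edgeR adjusted p = 1.9e-05; 2.40-fold). In dHLH cells, which started highest, the shMyh9#2 libraries were at 101 and 123 CPM, and the difference of 0.46 (SE 0.14) missed the threshold (edgeR adjusted p = 0.19). The difference of the shMyh9#2 effect between dHLH and EV cells was -0.54 (SE 0.20, edgeR adjusted p = 0.17), and between WT and EV cells 0.27 (SE 0.20, 0.48), where 3.29% and 5.18% of all genes were called, so it was not shown that the effects differ.

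Genes listed as markers of other cell types moved with the Myh9 hairpins too, in these cultured lines. The summed level of the 14 leukocyte markers went from 6.16 to 7.58 CPM with shNC to 17.9 to 18.8 CPM with shMyh9#2 in EV cells, from 17.7 to 18.4 CPM to 85.7 to 88.5 CPM in WT and from 18.8 to 22.1 CPM to 41.99 to 44.1 CPM in dHLH. Most of this was Laptm5, which was higher by 2.1005 (SE 0.20, edgeR adjusted p = 4.4e-06) in EV, 2.48 (SE 0.16, 6.2e-08) in WT and 1.14 (SE 0.16, 0.0026) in dHLH. Lyz2 reached a mean of 10 counts in dHLH cells with shMyh9#2 and not in those with shNC. Adgre1, Cd14, Tyrobp, Cd3e and Ncr1 were at 0 in all these libraries. The fibroblast and mesenchymal markers went from 166 to 196 CPM to 215 to 239 CPM in EV, from 396 to 412 CPM to 547 to 564 CPM in WT and from 698 to 722 CPM to 723 to 865 CPM in dHLH. With shMyh9#4 the leukocyte sums were 20.2 to 21.8 CPM in EV, 23.3 to 31.6 CPM in WT and 24.5 to 27.7 CPM in dHLH. The fibroblast and mesenchymal sums with shMyh9#4 were 215 to 239 CPM in EV, 489 to 553 CPM in WT and 556 to 593 CPM in dHLH. The part of these markers in the values of Csf1 and Ccl5 with either hairpin was not tested.

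The second hairpin, which lowered Myh9 less, gave smaller differences of Csf1 in the same direction. With shMyh9#4 the libraries were at 31.2 and 36.0 CPM in EV, 63.4 and 76.9 CPM in WT and 105 and 92.0 CPM in dHLH, in each background above both shNC libraries. The log2 fold changes were 0.41 (SE 0.15, edgeR adjusted p = 0.285), 0.64 (SE 0.14, 0.060) and 0.27 (SE 0.14, 0.19), none of them called. The WT value was called by DESeq2 (adjusted p = 0.0068).

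Over the 20 groups Csf1 was highest in YUMM2.1-dHLH (125 ± 30.8 CPM, SD, n = 2) and lowest in B16-Ctrl (4.82 ± 0.104 CPM), and 9 of the 19 neighbours in this order did not overlap. The 5 highest groups were the 4 dHLH groups of YUMM2.1 and WT with shMyh9#2. B16-Ctrl lay at 4.75 and 4.89 CPM (99 and 101 counts) and B16-KO at 9.42 and 4.67 CPM, so that the knockout libraries lay on both sides of the control and the difference of 0.54 (SE 0.39) was not called (edgeR adjusted p = 0.60). YUMM1.7-EV, at 66.3 and 75.8 CPM, exceeded YUMM2.1-EV by 1.39 (SE 0.13, edgeR adjusted p = 2.0e-05; 2.61-fold). B16-Ctrl was below YUMM2.1-EV by -2.52 (SE 0.14, edgeR adjusted p = 2.6e-07) and below YUMM1.7-EV by -3.91 (SE 0.14, 1.3e-08). The knockout clone aC3-EV differed from YUMM2.1-EV by -0.07 (SE 0.13, edgeR adjusted p = 0.88).

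Other values moved with Csf1. The summed level of 10 fibroblast and mesenchymal markers went from 269.5 to 301 CPM in YUMM2.1-EV to 682 to 875 CPM in YUMM2.1-dHLH, and with shNC from 166 to 196 CPM in EV to 396 to 412 CPM in WT and 698 to 722 CPM in dHLH. The summed melanocytic markers moved the other way, from 596 to 604 CPM in YUMM2.1-EV to 119 to 136 CPM in YUMM2.1-dHLH. Among the leukocyte markers, Laptm5, which codes for a lysosomal membrane protein, went from 1.67 ± 0.703 CPM in YUMM2.1-EV to 16.4 ± 1.29 CPM in YUMM2.1-dHLH (log2 3.34, SE 0.80, edgeR adjusted p = 0.037). Csf1r, the receptor for Csf1 and also on that list, reached a mean of 10 counts in YUMM2.1-dHLH and in no other group. Cd68 reached it in both YUMM2.1-EV and YUMM2.1-dHLH, while Cd3e and Ncr1 stayed at 0. The part of these markers in the Csf1 result was not tested. In bulk RNA of cultured lines, more cells that express a gene and more RNA per cell cannot be told apart.

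Ccl2 (ENSMUSG00000035385, chr11:82035571-82037453, plus strand), the main attractant of monocytes, was highest in the Bmal1-null aC3 cells with empty vector and fell when either construct was added back. It was at 23.9 and 26.7 CPM in aC3-EV, at 10.6 and 13.3 CPM in aC3-WT and at 14.1 and 12.2 CPM in aC3-dHLH. Both EV libraries lay above all 4 others, and WT and dHLH overlapped. WT was below EV by -1.09 (SE 0.17, edgeR adjusted p = 0.00091; 2.13-fold lower) and dHLH by -0.95 (SE 0.17, 0.0030; 1.93-fold lower). Both calls were lost in one fit of all 40 libraries (edgeR adjusted p = 0.062 and 0.16), and that of dHLH without aC3-EV replicate 2 (-0.87, adjusted p = 0.051). The reads of Ccl2 can include those of Gm17268, which the annotation places over it on the opposite strand, as the strand setting of the counting was not given in the sources used here.

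The drop of Ccl2 with WT in aC3 was not shown to differ from the WT effect in YUMM2.1. In YUMM2.1 it was at 17.4 and 14.8 CPM with EV, 10.3 and 17.4 CPM with WT and 14.7 and 6.35 CPM with dHLH, and none of these differences was called (WT against EV -0.21, SE 0.41, edgeR adjusted p = 1, which turned to 0.22 with the 2 labels exchanged, adjusted p = 0.83, and lay at 0.01 without both libraries). The WT effect in aC3 minus that in YUMM2.1 was -0.87 (SE 0.40, edgeR adjusted p = 0.48) as labelled, and -1.30 (adjusted p = 0.047) with the 2 labels exchanged, where 0.208% of all genes were called as labelled and 7.58% after the exchange. Without both libraries it was -1.12 (edgeR adjusted p = 0.21). The aC3-EV libraries lay above those of YUMM2.1-EV by 0.66 (SE 0.19), which was not called as labelled (edgeR adjusted p = 0.13) or without both libraries (0.56, 0.14) and was called after the exchange (0.87, 0.019). In YUMM1.7 the 6 libraries lay between 9.34 and 12.9 CPM.

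Among the hairpin groups, Ccl2 stood low in 1 group. It was at 1.6985 and 3.17 CPM (6 and 18 counts) in dHLH cells with shMyh9#4, against 14.8 and 14.6 CPM with shNC (213 and 90 counts) and 13.8 and 16.1 CPM with shMyh9#2. All other hairpin libraries lay between 11.0 and 23.9 CPM. Within these, EV cells with shMyh9#2 were at 11.6 and 11.1 CPM, below both EV-shNC libraries at 17.7 and 20.5 CPM. That difference was not called in the main test and was called with no filter on low counts (-0.76, edgeR adjusted p = 0.047). The log2 fold change of shMyh9#4 against shNC in dHLH cells was -2.50 (SE 0.39, edgeR adjusted p = 0.0012; 5.67-fold lower), and it was called under every alternative and with each library left out. It differed from the shMyh9#4 effect in EV cells by -2.36 (SE 0.50, edgeR adjusted p = 0.0082; 8.51% of all genes called). Ccl2 was not alone in this. The 7 members judged for shMyh9#4 against shNC in dHLH cells had a median log2 fold change of -1.34, against -0.0037 for all genes. Csf1 and Ccl5 had higher means with shMyh9#4 there. Ccl7 was called lower with no filter on low counts (-1.76, edgeR adjusted p = 0.0097). The dHLH-shMyh9#4 group holds the shallowest library of the series (3643332 counts) and had 15.1% of all genes called, and the part of either in the Ccl2 value was not tested.

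In B16-F10 Ccl2 had at most 1 count in any of the 4 libraries. B16-Ctrl held 1 count in all against 345 in YUMM2.1-EV and 269 in YUMM1.7-EV, ratios of 674 (95% counting interval 120.3 to 26716) and 508 (90.4 to 20138) after scaling, with edgeR adjusted p = 5.5e-08 and 8.3e-08. These exact intervals cover counting error only, as the reads carry no molecular identifiers.

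Ccl7 (ENSMUSG00000035373, chr11:82045712-82047525, plus strand), a further ligand of monocyte receptors, lies 8258 bases from Ccl2 in the chemokine cluster of chromosome 11. In aC3 it moved as Ccl2 did, at 5.59 and 7.27 CPM with EV (63 and 79 counts), 2.55 and 2.35 CPM with WT and 1.75 and 2.23 CPM with dHLH. The EV libraries lay above the other 4. The differences from EV were -1.40 for WT (SE 0.33, edgeR adjusted p = 0.0145; 2.63-fold lower) and -1.698 for dHLH (SE 0.34, 0.00625; 3.25-fold lower). These were among the less firm calls: in one fit of all 40 libraries they had edgeR adjusted p = 0.35 and 0.28, the WT call was lost when any of its 4 libraries was left out (adjusted p = 0.051 to 0.16; -1.20 without aC3-EV replicate 2), and the dHLH call without aC3-EV replicate 2 (-1.50, adjusted p = 0.10).

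Elsewhere the libraries of Ccl7 spread widely. In YUMM2.1-dHLH the 2 libraries were at 6.51 and 1.41 CPM (69 and 12 counts), on both sides of the EV libraries at 2.09 and 2.16 CPM. In dHLH cells with shMyh9#2 they were at 5.02 and 19.6 CPM (23 and 276 counts), and with shNC at 7.21 and 1.78 CPM. No hairpin or construct comparison in YUMM2.1 was called for Ccl7, at this spread. The dHLH effect in aC3 minus that in YUMM2.1 was -2.62 (SE 0.88, edgeR adjusted p = 0.058), -3.02 (0.016) with the 2 labels exchanged and -2.67 (0.085) without both libraries. Between lines, YUMM1.7-EV was below YUMM2.1-EV by -3.16 (SE 0.81, edgeR adjusted p = 0.012), a call that was lost without YUMM1.7-EV replicate 1 (-2.16, adjusted p = 0.057). B16-Ctrl held 1 count in all against 45 in YUMM2.1-EV, a ratio of 88.0 (95% counting interval 15.0 to 3551; edgeR adjusted p = 0.00056), and Ccl7 was too low to judge between B16-Ctrl and YUMM1.7-EV.

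Ccl5 (ENSMUSG00000035042, chr11:83525778-83530518, minus strand), which draws T cells and macrophages, was higher with shMyh9#2 in all 3 construct backgrounds. In WT cells it was at 2.32 and 3.46 CPM with shNC (17 and 29 counts) and at 14.9 and 12.7 CPM with shMyh9#2. In dHLH cells it was at 6.80 and 4.71 CPM with shNC and at 24.4 and 16.1 CPM with shMyh9#2. In EV cells it was at 6.36 and 11.1 CPM with shNC and at 19.4 and 17.2 CPM with shMyh9#2. In each background both shMyh9#2 libraries lay above both shNC libraries.

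The log2 fold changes of Ccl5 with shMyh9#2 were 2.24 in WT (SE 0.35, edgeR adjusted p = 0.00087; 4.72-fold), 1.73 in dHLH (SE 0.32, 0.018; 3.33-fold) and 1.06 in EV (SE 0.31, 0.050, just under the threshold; 2.09-fold). The WT call held under every alternative and with each library left out. The dHLH call was lost without dHLH-shNC replicate 1 (2.07, edgeR adjusted p = 0.15), without dHLH-shNC replicate 2 (1.54, 0.24) and without dHLH-shMyh9#2 replicate 1 (1.43, 0.13). The EV call was lost with any of its 4 libraries left out (edgeR adjusted p = 0.059 to 0.40; from 0.72 without EV-shNC replicate 1 to 1.49 without EV-shNC replicate 2). The shMyh9#2 effect on Ccl5 differed from that in EV by 1.18 in WT (SE 0.47, edgeR adjusted p = 0.16) and by 0.67 in dHLH (SE 0.45, 0.48), neither called.

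With shMyh9#4 Ccl5 was at 9.02 and 13.6 CPM in EV, 7.59 and 11.7 CPM in WT and 7.36 and 5.11 CPM in dHLH. The WT libraries lay above shNC by 1.77 (SE 0.37), which missed the threshold with edgeR (adjusted p = 0.052) and passed it with DESeq2 (0.0023). The EV and dHLH libraries overlapped those of shNC.

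Across constructs with shNC, Ccl5 was lower in WT than in EV by -1.59 (SE 0.37, edgeR adjusted p = 0.0043; 3.01-fold lower), a call lost without EV-shNC replicate 2 (-1.16, adjusted p = 0.086) and without WT-shNC replicate 1 (-1.34, 0.055). The EV mean of Ccl5 was 8.73 CPM with shNC and 2.72 CPM without a hairpin, and the WT mean 2.89 and 2.87 CPM. The difference between those 2 experiments was not tested. In the cells without a hairpin it was instead dHLH that stood apart, at 6.88 and 7.53 CPM. There EV was at 2.84 and 2.596 CPM and WT at 1.87 and 3.87 CPM. Both dHLH libraries lay above all 4 others, but the difference from EV, 1.42 (SE 0.39), missed the threshold (edgeR adjusted p = 0.058). It was called by DESeq2 (adjusted p = 0.046), with no filter on low counts (edgeR adjusted p = 0.0064) and in one fit of all 40 libraries (0.0065). With the 2 labels exchanged it was 1.62 (edgeR adjusted p = 0.0080), and without both libraries 1.34 (0.091). Against WT it was 1.35 (SE 0.39, edgeR adjusted p = 0.069), 1.16 with the labels exchanged (0.043) and 0.90 without both libraries (0.40). That difference was called with no filter (edgeR adjusted p = 0.00997) and in one fit of all 40 libraries (0.0094).

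The dHLH effect on Ccl5 differed between YUMM1.7 and YUMM2.1 by -2.27 (SE 0.45, edgeR adjusted p = 0.0040), and this was called under every alternative and with each library left out. In YUMM1.7 the libraries were at 3.55 and 4.86 CPM with EV, 3.68 and 2.64 CPM with WT and 2.26 and 2.35 CPM with dHLH, so the dHLH libraries were the lowest there, with no call within that line (dHLH against EV -0.86, SE 0.35, edgeR adjusted p = 0.38). In aC3 Ccl5 was at 4.97 and 4.69 CPM with EV, 7.37 and 8.89 CPM with WT and 9.22 and 7.32 CPM with dHLH. Both construct groups lay above EV without overlap, by 0.74 (SE 0.24, edgeR adjusted p = 0.068) and 0.77 (SE 0.24, 0.059), neither called. The dHLH difference in aC3 was called with no filter on low counts (0.76, edgeR adjusted p = 0.04).

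Over all groups Ccl5 ran from 1.64 ± 0.558 CPM in B16-Ctrl to 20.3 ± 5.93 CPM in YUMM2.1 dHLH with shMyh9#2 (SD, n = 2 each), and only 3 of 19 neighbours in the order did not overlap. B16-KO, at 2.35 and 4.25 CPM, lay above B16-Ctrl, at 1.25 and 2.03 CPM, by 1.00 (SE 0.49, edgeR adjusted p = 0.48), which was not called. B16-Ctrl was below YUMM1.7-EV by -1.38 (SE 0.35, edgeR adjusted p = 0.0075), lost without B16-Ctrl replicate 1 (-1.05, 0.059) and without YUMM1.7-EV replicate 2 (-1.14, 0.066).

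**Figure D4:**
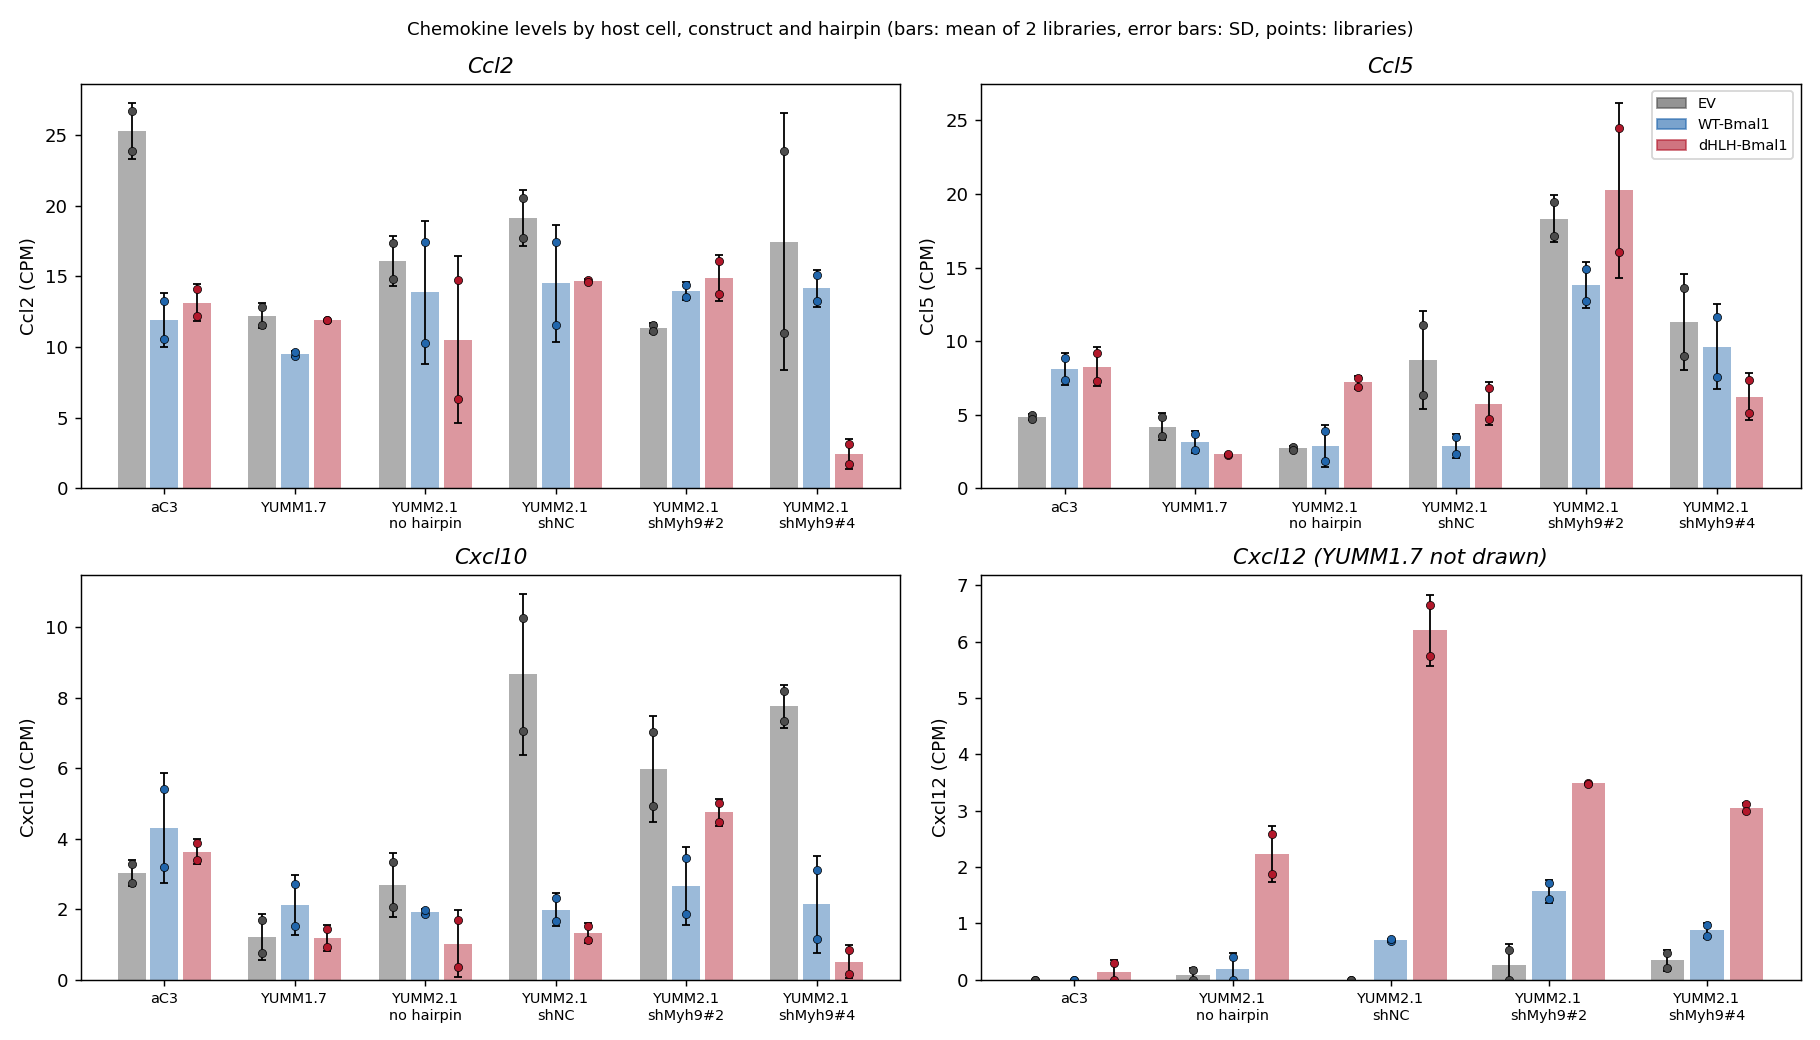
Ccl2, Ccl5, Cxcl10 and Cxcl12 in CPM by host, construct and hairpin, with bars for the mean of 2 libraries, error bars for the SD and points for the libraries; B16-F10 is not drawn. The Cxcl12 panel leaves out YUMM1.7, where the level is 68.1 to 84.5. Ccl2 is lowest in dHLH cells with shMyh9#4 (1.6985 and 3.17), Ccl5 is highest with shMyh9#2 (12.7 to 24.4), and Cxcl12 is highest in YUMM2.1 cells with dHLH (1.89 to 6.65).

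Cxcl10 (ENSMUSG00000034855, chr5:92346638-92348889, minus strand), an interferon-induced attractant of T cells, was lower with either Bmal1 construct in the shNC cells. It was at 10.3 and 7.06 CPM in EV-shNC (84 and 63 counts), at 2.32 and 1.67 CPM in WT-shNC (17 and 14 counts) and at 1.53 and 1.14 CPM in dHLH-shNC (22 and 7 counts). Both EV libraries lay above the other 4. The EV-shNC mean of 8.67 CPM was the highest of the 20 groups, against 2.70 CPM in YUMM2.1-EV without a hairpin. The WT mean was 1.99 CPM with shNC and 1.93 CPM without a hairpin, and the dHLH mean 1.33 and 1.02 CPM. The difference between those 2 experiments was not tested. WT was below EV by -2.13 (SE 0.47, edgeR adjusted p = 0.0033; 4.36-fold lower) and dHLH by -2.65 (SE 0.48, 0.00049; 6.26-fold lower). The WT call was lost without WT-shNC replicate 2 (-1.90, edgeR adjusted p = 0.051), while that of dHLH was kept under every alternative and with each library left out. The reads of Cxcl10 can include those of Art3, which overlaps it on the opposite strand.

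Without a hairpin the same order was seen at low counts and was not called. Cxcl10 was at 3.34 and 2.05 CPM with EV, 1.87 and 1.98 CPM with WT and 1.697 and 0.353 CPM with dHLH (18 and 3 counts), where dHLH against EV gave -1.33 (SE 0.67, edgeR adjusted p = 0.25), -1.27 (0.175) with the 2 labels exchanged and -1.64 (0.23) without both libraries. Neither hairpin was called in any background. In dHLH cells shMyh9#2 went with 5.02 and 4.48 CPM, above both shNC libraries by 1.76 (SE 0.49, edgeR adjusted p = 0.16), and shMyh9#4 with 0.849 and 0.176 CPM (3 counts and 1 count), below both by -1.59 (SE 0.77, 0.17).

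In the other lines, the aC3 libraries of Cxcl10 lay between 2.76 and 5.42 CPM, those of B16-F10 between 2.66 and 5.68 CPM and those of YUMM1.7 between 0.748 and 2.73 CPM. B16-Ctrl exceeded YUMM1.7-EV by 1.21 (SE 0.45, edgeR adjusted p = 0.045), the only member higher in B16-Ctrl, and the call was lost with DESeq2 (adjusted p = 0.097) and without B16-Ctrl replicate 1 (1.11, 0.15), B16-Ctrl replicate 2 (1.31, 0.091) or YUMM1.7-EV replicate 2 (0.74, 0.26).

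Cxcl12 (ENSMUSG00000061353, chr6:117168535-117181367, plus strand), the ligand of Cxcr4 made mainly by stromal cells, was abundant in YUMM1.7 and near the floor elsewhere. YUMM1.7-EV had 81.9 and 77.8 CPM (923 and 833 counts), and all 6 YUMM1.7 libraries lay between 68.1 and 84.5 CPM with no construct called. YUMM2.1-EV held 2 counts in all, so that YUMM1.7-EV exceeded it by a ratio of 848 (95% counting interval 234 to 7009; edgeR adjusted p = 2.3e-07). B16-Ctrl held 1 count in all, and the ratio of YUMM1.7-EV to it was 3316 (594 to 131050; edgeR adjusted p = 3.6e-08). Of the 6 aC3 libraries 5 were at 0 and the sixth had 3 counts, which was too low to judge.

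Within YUMM2.1, Cxcl12 was seen mainly in the cells with dHLH. With shNC it was at 5.76 and 6.65 CPM in dHLH (83 and 41 counts), at 0.682 and 0.716 CPM in WT (5 and 6 counts) and at 0 in both EV libraries. Against a floor of 3 counts over the EV group, dHLH was at least 34.3-fold higher (edgeR adjusted p = 3.0e-05), and this call was kept under every alternative and with each library left out. Against WT it was higher by 3.13 (SE 0.67, edgeR adjusted p = 0.021; 8.75-fold), a call that was lost when any of the 4 libraries was left out (3.02 to 3.24, adjusted p = 0.15 to 0.20).

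Without a hairpin the dHLH libraries had 1.89 and 2.59 CPM (20 and 22 counts), EV 2 counts and 0, and WT 0 and 4 counts. Both dHLH libraries lay above all others. The ratio of dHLH to EV was 23.3 (95% counting interval 6.07 to 199), with edgeR adjusted p = 0.055. With the 2 labels exchanged, edgeR called it (adjusted p = 0.015), and without both libraries it did not (0.067). As labelled it was called by DESeq2 (adjusted p = 0.033), with no filter on low counts (edgeR adjusted p = 0.000965) and in one fit of all 40 libraries (0.00013). Against WT, which held 4 counts in all, the log2 fold change was 3.50 (SE 1.09, edgeR adjusted p = 0.083), with adjusted p = 0.046 after the exchange, 0.27 without both libraries, 0.0062 with no filter and 0.00040 in one fit of all 40 libraries.

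In the cells with hairpins against Myh9, dHLH kept 3.49 and 3.48 CPM with shMyh9#2 and 3.11 and 2.997 CPM with shMyh9#4, below both shNC libraries by -0.84 and -1.01, neither called. In WT cells shMyh9#2 gave 1.43 and 1.71 CPM (24 and 21 counts), above the shNC libraries and not called (1.14, SE 0.68, edgeR adjusted p = 0.41). Over the 20 groups the 3 YUMM1.7 groups came first, followed by the 4 dHLH groups of YUMM2.1 and then the 3 WT groups with a hairpin, and 9 of 19 neighbours did not overlap. The dHLH effect on Cxcl12 differed between YUMM1.7 and YUMM2.1 by -4.41 (SE 0.82, edgeR adjusted p = 0.0034), and lay at -7.56 (0.0090) without YUMM2.1-EV replicate 1 and -3.66 (0.0097) without YUMM2.1-EV replicate 2, as the counts of YUMM2.1-EV were 2 and 0. The fibroblast and mesenchymal markers summed to 2676 to 2902 CPM in YUMM1.7 and 3.20 to 18.8 CPM in B16-F10, and rose within YUMM2.1 as given beside Csf1. Their part in the Cxcl12 values was not tested.

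Cxcl1 (ENSMUSG00000029380, chr5:90891241-90893115, plus strand) and Cxcl5 (ENSMUSG00000029371, chr5:90759360-90761624, plus strand), attractants of neutrophils, were at the limit of these libraries. Cxcl1 had at most 17 counts and 10 of 40 libraries at 0, and reached a mean of 10 counts only in YUMM2.1-dHLH (17 and 9 counts) and in dHLH with shMyh9#2 (6 and 17 counts). Without a hairpin dHLH lay above WT by a ratio of 9.90 (95% counting interval 3.04 to 51.1; edgeR adjusted p = 0.090) and above EV by a log2 fold change of 1.56 (edgeR adjusted p = 0.29), neither called. The latter was 0.83 without both libraries whose labels are in doubt (edgeR adjusted p = 0.72). Between shMyh9#2 and shNC in dHLH cells Cxcl1 did not pass the filter of the fit, so it has no test there. The highest value of Cxcl5, 6 counts, was also in a YUMM2.1-dHLH library, which is too few counts to compare.

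Cx3cl1 (ENSMUSG00000031778, chr8:94772009-94782427, plus strand), the membrane-bound ligand of Cx3cr1, separated YUMM1.7 from every other line. It was at 78.1 and 81.8 CPM in YUMM1.7-EV, 83.9 and 80.2 CPM with WT and 72.5 and 70.7 CPM with dHLH (706 to 935 counts). The highest library of any other line had 6.71 CPM. YUMM1.7-EV exceeded YUMM2.1-EV, at 3.25 and 6.71 CPM, by 4.04 (SE 0.29, edgeR adjusted p = 3.7e-06; 16.4-fold). The dHLH libraries were the lowest 2 of YUMM1.7, with no call (against WT -0.20, SE 0.07, edgeR adjusted p = 0.19).

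In the YUMM2.1 cells neither construct nor hairpin was called for Cx3cl1, and its hairpin libraries lay between 0.705 and 5.22 CPM. The aC3-EV cells, at 0.976 and 1.29 CPM (11 and 14 counts), were below YUMM2.1-EV by -2.08 (SE 0.42, edgeR adjusted p = 0.041). This call was lost without aC3-EV replicate 1 (-1.90, 0.36) and without aC3-EV replicate 2 (-2.29, 0.29). With the 2 labels exchanged it was -1.53 (0.0055), and without both libraries, where YUMM2.1-EV keeps a lone library, -1.50. Within aC3, WT was at 2.36 and 2.86 CPM and dHLH at 2.04 and 2.12 CPM, both above EV without overlap and neither called (1.19, SE 0.47, edgeR adjusted p = 0.13, for WT). B16-Ctrl had 5 counts and 1 count and B16-KO 0 in both libraries, so B16-Ctrl was below YUMM2.1-EV by -5.01 (edgeR adjusted p = 2.6e-05) and below YUMM1.7-EV by -9.05 (6.3e-08).

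Some receptors for chemokines and colony-stimulating factors, not only for these 9 ligands, were read in the tumour cells themselves. Of 27 chemokine and colony-stimulating factor receptor genes, 12 reached a mean of 10 counts in at least 1 group and 5 in all 20, among them Cxcr2, Xcr1, Csf2ra and Csf3r. Cxcr2, the receptor for Cxcl1 and Cxcl5, lay between 22.0 and 143 CPM over the libraries. Csf1r, the receptor for Csf1, reached it in 1 group, YUMM2.1-dHLH. It had at most 2.64 CPM in any library, Ccr2 at most 0.552 CPM and Cxcr3 at most 0.238 CPM. Cxcr4, the signalling receptor for Cxcl12, was highest in YUMM1.7-dHLH, with a maximum of 8.80 CPM. Ackr3, an atypical receptor that takes up Cxcl12, rose with dHLH in YUMM2.1 from 0.924 to 8.73 CPM (log2 3.31, SE 0.73, edgeR adjusted p = 0.029), 1 of 2 receptors called of 7 tested there, where 13.2% of all genes were called, the other being Csf2ra (0.84, SE 0.18, 0.026). With shNC, Ackr3 was higher in WT (1.73, SE 0.41, edgeR adjusted p = 0.0050) and in dHLH (2.74, SE 0.39, 4.1e-05) than in EV.

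Of 30 other chemokine ligand genes, 8 reached a mean of 10 counts in some group and 1, Ccl25, in all. In YUMM2.1, 4 of them could be tested for dHLH against EV, of which 0 were higher and 2 lower, Ccl6 (-4.22, SE 0.91, edgeR adjusted p = 0.027) and Ccl9 (-1.31, SE 0.30, 0.034), macrophage attractants of the CC family, with a list median of -1.22, where 13.2% of all genes were called in either direction. Of 20 NF-κB subunits and feedback targets tested in the same comparison, 3 were higher and 0 lower, a share near that background: Ptgs2, a prostaglandin synthase (4.23, SE 0.73, edgeR adjusted p = 0.014), Tnfaip2 (1.54, SE 0.31, 0.022) and Cyld (0.57, SE 0.13, 0.030), with a list median of 0.12. Of 16 interferon-response genes tested with shNC, dHLH against EV had 1 higher and 3 lower, where 26.4% of all genes were called, and their median was -0.68 against 0.02 for all genes. The lower ones were Rsad2, Oasl1 and Bst2 (-1.37, SE 0.40, edgeR adjusted p = 0.017). In dHLH cells with shMyh9#4, where 15.1% of all genes were called, 4 of 20 NF-κB genes were lower and 0 higher, among them Nfkbia (-0.53, SE 0.13, edgeR adjusted p = 0.011) and Sod2 (-0.84, SE 0.15, 0.0018). Il34, the other ligand of Csf1r, was at 183 ± 7.53 CPM in EV-shNC and 297 ± 37.4 CPM in WT-shNC (0.69, SE 0.17, edgeR adjusted p = 0.0057).

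Genes whose log2 level most resembled that of a member over the 20 group means, among 16619 genes, were Podnl1 and Vegfd for Csf1 (Pearson's r = 0.968 and 0.967), Fads3, Bhlhe22 and Dvl1 for Ccl2 (0.972, 0.970 and 0.968) and Hebp1, Mid1 and Tmem65 for Cx3cl1 (0.969, 0.967 and 0.961). For Ccl7 they were Stk17b, Colca2 and Mmp10 (0.936, 0.926 and 0.921), for Ccl5 Pde1b, Lgi2 and Oasl1 (0.836, 0.828 and 0.815) and for Cxcl10 Gm47138, Rrm2b and U2af1 (0.828, 0.826 and 0.824). These are descriptions over groups that share hosts, controls and vectors, and say nothing of shared control.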

How the data were processed

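RNA of cultured cells (40 libraries, 20 groups of 2) was sequenced by QuantSeq FWD. The authors aligned single reads to mm10 with bowtie2 and deposited RSEM estimated counts per Ensembl gene. The Ensembl release and the strand setting are not given in the sources used here. Counts were used as deposited, identifiers were mapped to symbols (99.6% matched), and low genes were filtered within each experiment. Groups came from the labels. The main test was edgeR 4.0.16 quasi-likelihood (R 4.3.3, TMM scaling, Benjamini-Hochberg adjustment) per experiment, and levels are CPM on TMM-scaled library sizes. Exact permutation of 2 against 2 libraries cannot go below p = 0.333 and was not used. DESeq2 1.42.0, other scaling, no filter, a replicate block, 1 fit of all 40 libraries, exchanged labels and leaving out libraries were alternatives. On simulated counts with 200 changed genes, the fit recovered 39.5% in B16-F10, 46.0% in YUMM2.1, 76.0% in aC3 and 80.0% in YUMM1.7, and 13.2%, 11.5%, 13.1% and 8.05% of its calls, respectively, were of unchanged genes, above the nominal 5%. The hairpin fit recovered 63.5%, with 6.62% of its calls of unchanged genes. The fit between lines recovered 68.0%, with 8.11%. Named genes were the members, and from each list up to 4 of those called with the largest change. The members and lists were chosen with earlier results of these data known. Some genes that the rule would name are not reported here.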

Additional observations from a re-analysis of the deposited data

Results flagged for a closer look

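The effect of dHLH against EV differed between host cells for 3 members, by edgeR's test of the difference itself with adjustment over all genes. For Csf1 the effect in aC3 minus that in YUMM2.1 was -2.602 (adjusted p = 3.0e-06) and that in YUMM1.7 minus YUMM2.1 was -2.31 (1.9e-05). For Ccl5 the effect in YUMM1.7 minus YUMM2.1 was -2.27 (adjusted p = 0.0040), and for Cxcl12 it was -4.41 (0.0034), where YUMM2.1-EV held 2 counts in all. The effect of shMyh9#4 on Ccl2 differed between dHLH and EV cells by -2.36 (adjusted p = 0.0082).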

How the results depend on the processing

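Of 201 judged results, 40 were called, of which 26 were called under every alternative and with every library left out, 6 lost the call under an alternative and 13 with a library left out, and 0 changed sign. Of the 161 not called, 23 were called under some alternative other than leaving out a library. The members called over the YUMM2.1 construct comparisons numbered 2, and 4 with the DESeq2 Wald test, 7 with no filter on low counts, 6 with the replicate block, 6 in one fit of all 40 libraries and 6 with the 2 labels exchanged. In aC3 the count was 4, and 0 in one fit of all 40 libraries. With the Myh9 hairpins it was 6, and 12 with no filter. For the difference of hairpin effects it was 1, and 2 with DESeq2, 5 with no filter and 2 in one fit of all 40 libraries. Leaving out 1 library at a time gave 0 to 2 calls in B16-F10 (0 with all; 1 without B16-KO replicate 1 and 2 without B16-KO replicate 2), 1 to 7 in aC3 (1 without aC3-EV replicate 2, 7 without aC3-dHLH replicate 2), 2 to 3 in YUMM2.1, 0 to 0 in YUMM1.7, 4 to 8 with hairpins, 5 to 8 with shNC (8 with all; 5 without WT-shNC replicate 2), 12 to 16 between lines (15 with all), 4 to 6 between hosts (4 with all) and 1 to 2 for the difference of hairpin effects. The lone library left in such a group is assumed to vary like the others, and the cause of these changes was not tested. The replicate numbers were not taken to pair the libraries, since the labels do not say what a number shares and there are only 2 of them. With the replicate block, the edgeR adjusted p in YUMM2.1 was 0.018 for Ccl5 and 0.021 for Cxcl12 in dHLH against EV, and 0.020 and 0.033 against WT. The mean correlation of same-numbered deviations was 0.316 in YUMM2.1, 0.102 in B16-F10, 0.0532 in aC3, -0.0024 in YUMM1.7 and -0.0037 with hairpins. Counts limit Cxcl1, Cxcl5 and, outside YUMM1.7, Cxcl12, where differences were often not detectable at this depth.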
